A study of Mus musculus with 9 samples.

Results

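Of the 9639 RARA peaks called on chromosomes 1 to 19 and X after retinoic acid (RA), 4217 lay outside the DNA that the plasmid library was listed to hold (43.7%; 95% Wilson interval 42.8 to 44.7%). These are called outside peaks here. They were chosen by measured calls: a RARA peak was taken when it shared not even 1 bp with any of the 186948 library regions on those chromosomes. The other 5422 peaks, called inside peaks, overlapped a library region by 1 bp or more. That split is the rule itself and is no finding. It draws on positions alone, though a wider peak has more chance to touch a library region, so width enters it in part. Positions are of build mm9, counted from 1. The library regions stand for accessible DNA by their label, which no second assay in these files checks.

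All samples came from E14, a single line of mouse embryonic stem cells grown without feeder cells. RARA binding was mapped by ChIP-seq with 1 ChIP sample and 1 input sample, using a rabbit polyclonal antibody that the protocol names as RAR, from cells whose medium was changed 4 h before cross-linking to one without leukemia inhibitory factor (LIF) and with 1 µM RA. The plasmid library (1 sample) held DNA isolated by FAIRE, which recovers DNA with few nucleosomes, from E14 cells that had also received 1 µM RA for 4 h. It was assayed as a reporter library in 3 samples given LIF for 4 h and 3 samples given 1 µM RA in place of LIF for 4 h, and the enhancer lists used below came from these samples after merging. With 1 ChIP sample and 1 library sample there is no spread between cultures, so no difference below carries a test. Intervals cover counting error alone and treat peaks as independent, which neighbouring peaks are not.

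RARA is a nuclear receptor that binds DNA as a heterodimer with RXR, usually at paired copies of a short half-site spaced as direct repeats. Without ligand the pair tends to hold corepressors. Binding of RA exchanges them for coactivators and opens the way to transcription of targets such as RA-degrading enzymes and Hox genes. Receptors of this family can bind in open chromatin and also in DNA that assays of accessibility do not call. Accessibility is called against a threshold, so DNA that is not listed has not thereby been shown to be closed.

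The library list was itself a part of a longer list. The numbers in its peak names rose along every chromosome with 0 steps down and reached 397053, while 186959 of them were listed, so 210094 numbers (52.9%) had no region. Because the numbers follow position, they show for each outside peak whether an unlisted call lay somewhere between the nearest listed regions to its left and right. For 1922 of the 4201 outside peaks with a listed region on both sides (45.8%; 44.2 to 47.3%), the flanking numbers were consecutive. For these no numbered library call, listed or not, can overlap the peak. For the other 2279 at least 1 number was missing from the gap, with a median of 2 and a maximum of 41, and an unlisted call may or may not overlap them. The remaining 16 outside peaks had a listed region on a single side. With the 1922 in place of all outside peaks, and the 5422 inside peaks as before, the share outside was 26.2%, an alternative chosen after the values were seen.

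Most outside peaks lay close to library DNA. The median distance from the edge of a peak to the edge of the nearest library region was 1738 bp (95% interval of the median 1623 to 1862; quartiles 473 and 6695 bp). Of the 4217 outside peaks 1093 (25.9%; 24.6 to 27.3%) had a library region within 500 bp, 2307 (54.7%; 53.2 to 56.2%) were farther away but within 10 kb, and 817 (19.4%; 18.2 to 20.6%) were more than 10 kb away. These are called near, middle and far peaks below. The shares take no account of how much DNA between library regions lies at each distance, as the summit densities below do. Of the far peaks 209 had no library region within 50 kb. The distance depends on the rule: the median was 1028.5 bp with the summit in place of the whole peak as the test of overlap, 949.5 bp with under 50% of the length in the library, and 3494 bp with the stronger 50% of library regions.

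**Figure D1:**
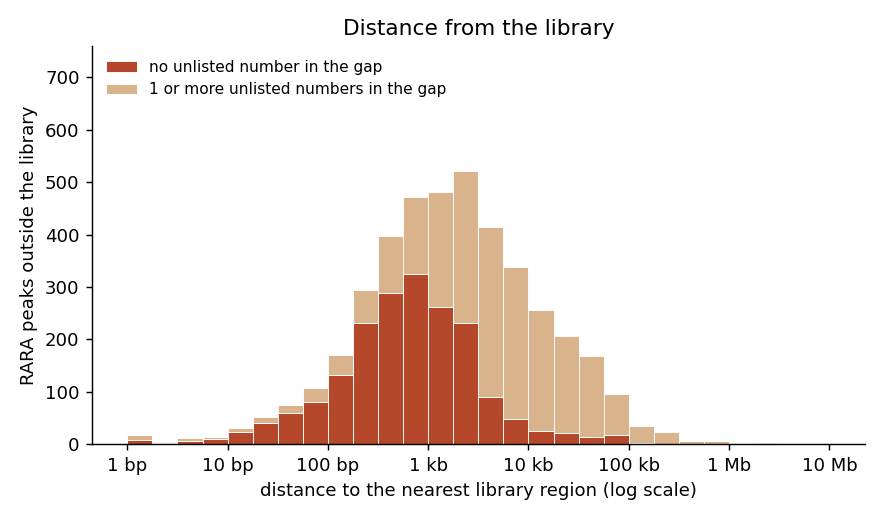
Distance from outside RARA peaks to the nearest library region on a log axis (horizontal) against the number of peaks (vertical), for the 4201 peaks flanked by listed regions on both sides; dark bars are peaks in gaps with no unlisted number, light bars those with 1 or more, and a distance of 0 is drawn at 1 bp. The dark bars lie mostly at or below a few kb and the light bars reach farther, with medians of 634 and 4439 bp.

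Gaps with consecutive numbers were the shorter ones. The median distance to the library was 634 bp for outside peaks in such gaps and 4439 bp for those in gaps with a missing number. Among near peaks 75.2% (822 of 1093) were in a gap with consecutive numbers, against 44.2% of middle peaks (1019 of 2307) and 10.1% of far peaks (81 of 801). A longer gap has more room for an unlisted call, so this order follows in part from gap length.

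The density of RARA summits, the positions of highest signal, was lower at each step away from the library. Inside library regions, which cover 70.5 Mb, there were 4531 summits, or 64.3 per Mb. In gap DNA within 0.5 kb of a library region there were 9.94 per Mb, and 855 of the 1736 summits in that band belonged to outside peaks. The others were summits of inside peaks that overlapped the library elsewhere along their length. For a peak with several summits, only the summit of highest −log10 q was counted. From 0.5 to 1 kb the density was 4.41 per Mb, and from 1 to 5 kb it was 2.00 per Mb. It was 1.06 per Mb from 5 to 10 kb and 0.795 per Mb from 10 to 50 kb. Beyond 50 kb it was 0.690 per Mb, from 196 summits in 284 Mb. The decline was therefore steep over the first kilobase and shallow after 5 kb. Gap DNA was taken at full length between listed regions. Stretches without known sequence, or where reads cannot be placed, were not removed, and their share by distance was not assessed.

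At the edge of the rule the peaks on either side were alike in size. The 192 outside peaks within 50 bp of a library region had a median fold enrichment of 2.84 and a median width of 232 bp, and the 234 inside peaks with 50 bp of overlap or less had 2.81 and 210.5 bp. Outside, 10 peaks ended exactly where a library region began or began where one ended. The strongest of these lay on chromosome 8 from 87371526 to 87372392, with a RARA fold of 4.70. Enhancers of the mESC and RA-induced lists, both made from the reporter samples, had midpoints 0.986 and 0.98 kb away. The next, on chromosome 2 from 173071990 to 173072368, had a fold of 3.70. Another, on chromosome 6 from 94215421 to 94215730, had a fold of 3.43. On chromosome 11 from 96213367 to 96213547 the fold was 3.40, and on chromosome 9 from 21706206 to 21706551 it was 3.33. Each of these 5 gaps lacked 1 library number. On the inside, 2 peaks overlapped by a single base: one on chromosome 5 from 77787239 to 77787438 with a fold of 2.65, and one on chromosome 3 from 154756039 to 154756240 with a fold of 2.27. An overlap of 2 bp held for a peak of 5.78-fold on chromosome 18 from 75144810 to 75145161, for one of 3.05-fold on chromosome 11 from 40547292 to 40547671, and for one of 3.04-fold on chromosome 5 from 75480687 to 75480841.

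Outside peaks were weaker than inside peaks by a small margin in the middle of the range and by more at the top. The fold enrichment at the summit, the peak caller's ratio of ChIP to background as the authors list it, had a median of 2.97 in outside peaks (95% interval 2.94 to 3.03; quartiles 2.60 and 3.63). In inside peaks the median was 3.17 (3.14 to 3.23; quartiles 2.74 and 4.19). The 90th percentile was 4.88 outside and 6.56 inside. The −log10 q, in which a larger value is a stronger call, had medians of 5.59 and 6.46. Fold values came in steps: the 4217 outside peaks held 1562 distinct values, and the most frequent, 2.55, occurred 156 times. Small differences of a median are thus close to the resolution of the value. With a −log10 q of at least 10 required, the median fold of outside peaks was 4.51.

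**Figure D2:**
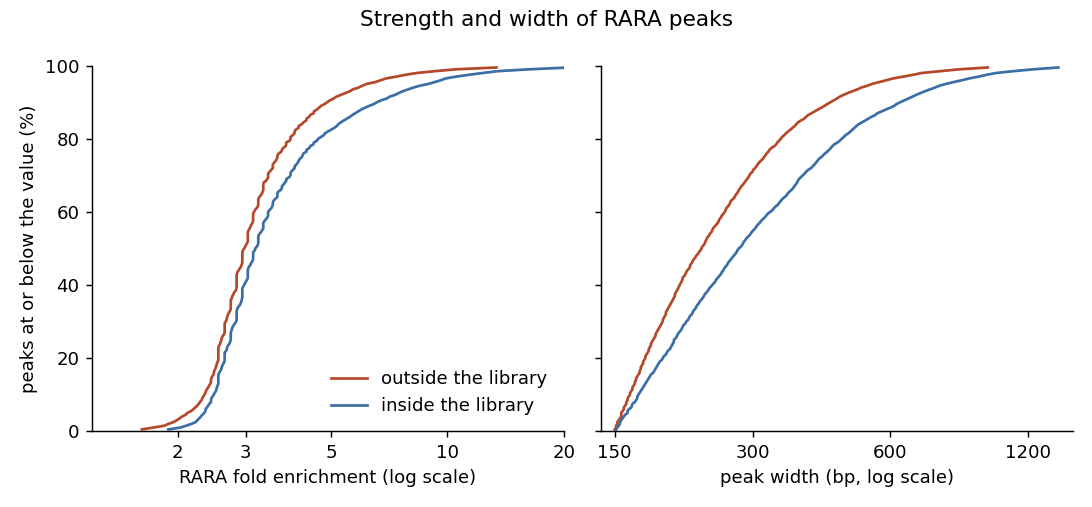
Cumulative percentage of peaks (vertical) at or below each RARA fold enrichment (left, log axis) and each peak width in bp (right, log axis), for outside peaks (red) and inside peaks (blue), drawn from the 0.5th to the 99.5th percentile and cut at the axis limits. The red curves lie to the left of the blue ones, with medians of 2.97 and 3.17 for fold and of 232 and 280 bp for width.

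Ranked by fold over all RARA peaks, the share outside the library was 56.6% (53.4 to 59.7%) in the weakest decile and 27.4% (24.7 to 30.3%) in the strongest. Between them it was 49.7% (46.6 to 52.8%) in decile 2, from 42.7 to 46.9% in deciles 3 to 7, 39.0% (36.0 to 42.1%) in decile 8 and 39.4% in decile 9. Among the strongest decile, with folds of 5.79 and above, 263 peaks were still outside. Of these 72 were near, 166 middle and 25 far peaks. A far peak reached the strongest decile in 3.06% of cases (2.08 to 4.48%), a near peak in 6.59% (5.26 to 8.22%) and a middle peak in 7.20% (6.21 to 8.32%).

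**Figure D3:**
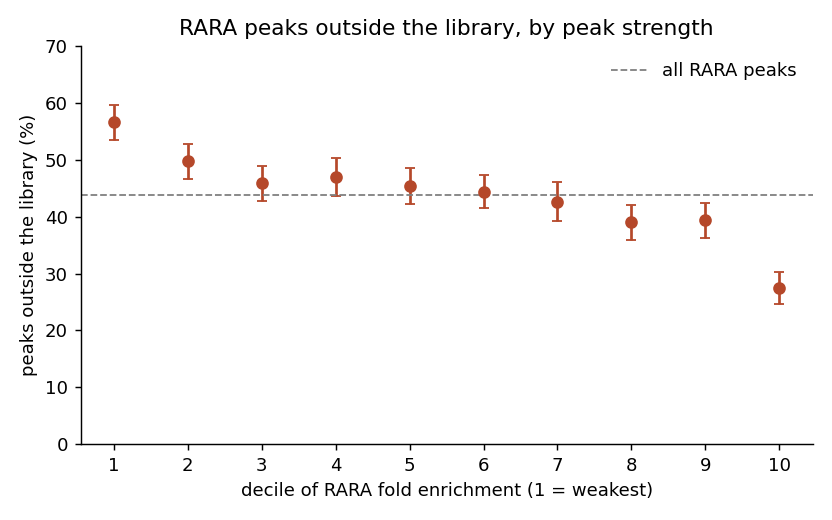
Percentage of RARA peaks outside the library (vertical, from 0) in each decile of RARA fold enrichment (horizontal); points are shares, bars are 95% Wilson intervals and the dashed line is the share over all 9639 peaks. The share goes from 56.6% in the weakest decile to 27.4% in the strongest.

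The strongest outside peak, of 63.6-fold, lay on chromosome 19 from 35350493 to 35351143. It was 5.89 kb from the nearest library region, in a gap of 54.4 kb that lacked 1 library number, and had 2 library regions within 50 kb. Its nearest RA-induced enhancer was 98.0 kb away. The second, of 56.6-fold, lay on chromosome 18 from 73251294 to 73252093, 7.86 kb from the library, in a gap of 228 kb from which 16 numbers were missing. Next came a peak of 40.4-fold, which lay on chromosome 6 from 139968387 to 139968858 at 18.4 kb from the library, the longest distance of the 10. These first 3 had from 2 to 5 library regions within 50 kb, below the median of all outside peaks, which was 14.

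Of the next 4, a peak of 36.7-fold on chromosome 4 from 117468517 to 117469116 was 3.48 kb from the library and had another RARA peak 0.664 kb away. One of 30.9-fold on chromosome 4 from 150545634 to 150546527 was the widest of the 10, with 894 bp. On chromosome 16 from 12711608 to 12712177 a peak of 30.5-fold lay 1.25 kb from a library region of 17.0-fold and 1.81 kb from the midpoint of an mESC enhancer, the nearest of the 10 to one. On chromosome 10 from 129960332 to 129960967 the fold was 28.5 and the library 3.62 kb away. All 7 of these peaks were in gaps that lacked at least 1 library number.

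The last 3 were these. A peak of 24.1-fold on chromosome 9 from 119270441 to 119271070 lay 2.74 kb from the library, and 23 library regions were within 50 kb of it. In the last pair the flanking library numbers were consecutive, so no numbered call lay in their gaps. One, of 23.1-fold, lay on chromosome 16 from 36475651 to 36476214, in a gap of 3.49 kb. The other, of 21.3-fold, lay on chromosome 2 from 59361562 to 59362084, 325 bp from a library region, in a gap of 1.94 kb. None of the 10 had more than 1 summit row, and none had a −log10 q below 203.6.

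Outside peaks were narrower, with a median width of 232 bp (228 to 236; quartiles 182 and 318 bp) against 280 bp (276 to 286; quartiles 202 and 424 bp) inside. Width and strength go together in a peak list, so fold was also compared within quartiles of width. In the narrowest quartile, from 150 to 192 bp, the median fold was 2.79 outside and 2.76 inside. In the next it was 2.94 and 3.03, and in the one above that 3.23 and 3.33. In the widest quartile, from 376 bp upward, it was 3.48 outside and 4.17 inside. The difference in strength thus lay mainly among wide peaks. Within that widest quartile inside peaks were still the wider, with a median of 512 bp against 477 bp, so width was not fully matched there. The share outside the library went from 54.0% in the narrowest quartile to 27.6% in the widest, an order that the overlap rule itself favours. With the summit in place of the whole peak as the test of overlap, the medians were 241 bp outside and 275 bp inside, and the folds 2.97 and 3.23.

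Several summits within 1 peak were listed for 393 outside peaks (9.32%; 8.48 to 10.2%), against 12.9% of all RARA peaks and 15.6% of inside peaks. These 393 had a median width of 466 bp, and the overlap rule itself favours placing wide peaks inside. With the summit in place of the whole peak as the test of overlap, the shares were 11.9% outside and 13.9% inside. The widest outside peak, 2655 bp with 5 summits, lay on chromosome 12 from 60136056 to 60138710 with a fold of 3.43. A pair followed near the start of chromosome 16: from 3343817 to 3345998 with 7 summits and 4.39-fold, and from 3121461 to 3123311 with 6 summits and 5.92-fold. No library region lay within 50 kb of either. The fourth, on chromosome 13 from 98261068 to 98262513, had 7 summits and a fold of 3.31 and was 145 bp from the library. The fifth, on chromosome 15 from 74916020 to 74917391, had 3 summits and a fold of 2.15 at a −log10 q of 96.7. Across these 5 the folds thus ran from 2.15 to 5.92, the highest of them just within the strongest decile.

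Around outside peaks the library was thinner, an order that the overlap rule itself favours, and more variable. A median of 14 library regions lay within 50 kb of an outside peak (quartiles 5 and 21), against 18 around inside peaks (quartiles 12 and 22) with the overlapped region left out. Within 10 kb both medians were 3. With the stronger 50% of library regions used both for the overlap rule and for the count, 57.5% of RARA peaks were outside. The median within 50 kb of these was 7. No library region lay within 50 kb of 209 outside peaks (4.96%; 4.34 to 5.65%). For 21 inside peaks (0.387%; 0.253 to 0.591%) none lay there besides what they overlapped. Near peaks had a median of 20, middle peaks 15 and far peaks 2. Near peaks thus had about as many library regions around them as inside peaks, though their nearest region is counted and the overlapped one of inside peaks is not. The library region nearest to an outside peak had a median library fold of 5.71, with 5.87 for near and 5.67 for far peaks.

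Seen from the library, 3466 of 186928 gaps between neighbouring listed regions held an outside peak (1.85%). In 3121 of them there was 1, in 231 there were 2, and the fullest held 30. That gap, of 328 kb, lay on chromosome 4 from 145335238 to 145662924. A gap of 2223 kb on chromosome 8 from 19910466 to 22133703 held 21, and 2 gaps held 18 each. One of these, of 249.5 kb on chromosome 4 from 145771312 to 146020824, lacked 0 library numbers. In gaps of up to 2 kb there were 8.88 outside peaks per Mb of gap, and in gaps above 50 kb there were 0.789 per Mb, again with gaps at full length.

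The outside peaks farthest from the library stood on chromosomes X and 7. A pair on chromosome X, from 28147479 to 28147742 and from 28148321 to 28148540, lay 2226 and 2225 kb from any library region, in a gap of 6421 kb that lacked 30 numbers. Their folds were 2.45 and 2.51 and their midpoints 0.82 kb apart. On chromosome 7 the peaks from 9676523 to 9676845 (2.94-fold) and from 9751627 to 9751833 (2.44-fold) shared a gap of 3072 kb. The fifth, on chromosome X from 3913931 to 3914094, was 745 kb away and had a fold of 2.55. None of the 5 exceeded the median fold of outside peaks. Far peaks as a whole had a median fold of 2.87 (2.84 to 2.94), near peaks 2.94 (2.87 to 2.94) and middle peaks 3.04 (3.04 to 3.09). The 5 fullest 1-Mb windows described below, where outside peaks had a median fold of 2.54, held 18.7% of far peaks. They held 4.39% of near and 5.59% of middle peaks. Whether they account for the order of these medians, or of the strongest-decile shares above, was not tested.

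Outside peaks were more often crowded. Another RARA peak lay within 10 kb, between midpoints, of 1907 outside peaks (45.2%; 43.7 to 46.7%), against 41.0% of all RARA peaks and 37.7% (36.4 to 39.0%) of inside peaks. Within 5 kb the shares were 35.9% outside and 27.9% inside, and within 50 kb 68.3% and 65.8%. The median distance to the nearest RARA peak was 14405 bp outside and 22987.5 bp inside. In the upper tail the order turned: the 90th percentile was 276612 bp outside and 224624 bp inside. At the other end, 1338 outside peaks (31.7%) had none within 50 kb. These solitary peaks had a median fold of 3.14 (3.09 to 3.17), above the 2.84 (2.84 to 2.91) of those with a neighbour within 10 kb. Of the latter 15.1% lay in the 5 fullest windows, where the median fold was 2.54, against 0.149% of solitary peaks. The comparison was not repeated without those windows. Among the stronger 50% of RARA peaks alone, with neighbours limited to these as well, 27.3% of outside peaks had a neighbour within 10 kb. A shorter list leaves fewer neighbours to find, and the share of inside peaks was not computed under this limit.

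The neighbour was often itself outside the library. Another outside peak lay within 10 kb of 30.9% of outside peaks and of 20.8% of inside peaks. An inside peak lay within 10 kb of 25.1% of outside peaks and of 27.4% of inside peaks. Near peaks were crowded in 51.9% of cases, middle peaks in 42.7% and far peaks in 43.6%. None of the 817 far peaks had an inside peak within 10 kb, which their distance to the library nearly fixes, so all 356 crowded far peaks had outside neighbours.

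Part of the crowding was found in a few windows. In a grid of 1-Mb windows 1425 held at least 1 outside peak, with a median of 2, and 594 held exactly 1. The 5 fullest held 330 outside peaks, 7.83% of all. Without these windows 41.7% of outside and 36.8% of inside peaks were crowded within 10 kb, so the difference between them was smaller. The windows were chosen for their many outside peaks, so a smaller difference follows in part from that choice. The median fold of outside peaks was 2.54 (2.45 to 2.65) in the 5 windows and 3.04 (2.99 to 3.04) elsewhere.

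**Figure D4:**
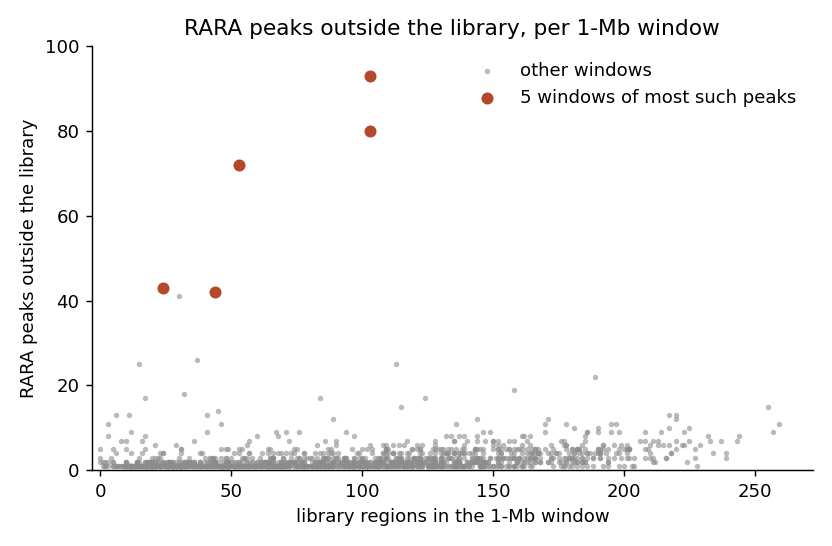
Number of outside RARA peaks (vertical) against the number of library regions (horizontal) in each 1-Mb window with at least 1 outside peak; red points are the 5 fullest windows and grey points the others. The red points hold 42 to 93 outside peaks with 24 to 103 library regions.

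The fullest window, on chromosome 4 from 146 to 147 Mb, held 93 outside and 25 inside peaks beside 103 library regions, above the median of 65 library regions per window on that chromosome. The outside peaks there had folds from 1.58 to 4.58 with a median of 2.32, and a median of 2.02 kb to the nearest RARA peak. The strongest lay from 146129154 to 146129664 with a fold of 4.58. Of the 93, 61 were in gaps with consecutive numbers. The window beside it, from 145 to 146 Mb, held 80 outside peaks with a median fold of 2.38, the strongest of 3.82-fold from 145963917 to 145964080. The outside peaks of this second window were remote from the library, at a median of 52.7 kb, against 5.65 kb in the first.

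Adjoining windows on chromosome 13 came next. From 66 to 67 Mb there were 72 outside peaks with a median fold of 2.71 and 53 library regions, the strongest of 4.31-fold from 66591617 to 66592014. From 65 to 66 Mb there were 42 with a median fold of 3.03 and 44 library regions, the strongest of 5.68-fold from 65153749 to 65154321. Both had fewer library regions than the chromosome's median of 69. On chromosome 12 from 116 to 117 Mb, 43 outside and 4 inside peaks lay beside 24 library regions, and the strongest, from 116618284 to 116618580, had a fold of 4.27. Over all 5 windows the 84 inside peaks had a median fold of 2.45 (2.27 to 2.71), but the order differed between windows. Inside peaks had the higher median in both chromosome 13 windows, 2.95 from 66 to 67 Mb and 3.71 (9 peaks) from 65 to 66 Mb. In the fullest window theirs was 2.34, close to that of the outside peaks, and it was lower than that of the outside peaks from 145 to 146 Mb on chromosome 4 (2.15) and on chromosome 12 (2.33, 4 peaks). A fold below 2 was listed for 14.2% of outside peaks in the 5 windows, for 16.7% of the inside peaks there, for 2.26% of outside peaks elsewhere and for 0.656% of inside peaks elsewhere. Low folds were thus shared by both kinds of peak in these windows.

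A row of 8 outside peaks on chromosome 6, from 47604906 to 47635466, was spaced with great regularity. It was noticed in the values. A rule written afterwards, at least 6 consecutive RARA peaks whose summit spacings all lie within 10% of their median, found this run and no other among the 9639 peaks. The 7 spacings ran from 4310 to 4336 bp, with a mean of 4326 ± 8.36 bp (SD). Their folds were 2.95, 3.52, 3.33, 3.94, 3.14, 2.85, 3.32 and 3.03 in order of position. In 7 of the 8 the fold was below the upper quartile of outside peaks, 3.63. Their −log10 q ran from 92.4 to 144, while the 1580 other outside peaks of the same fold range had a median of 6.24 (quartiles 5.07 and 8.39), and 1 of them reached 92.4.

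**Figure D5:**
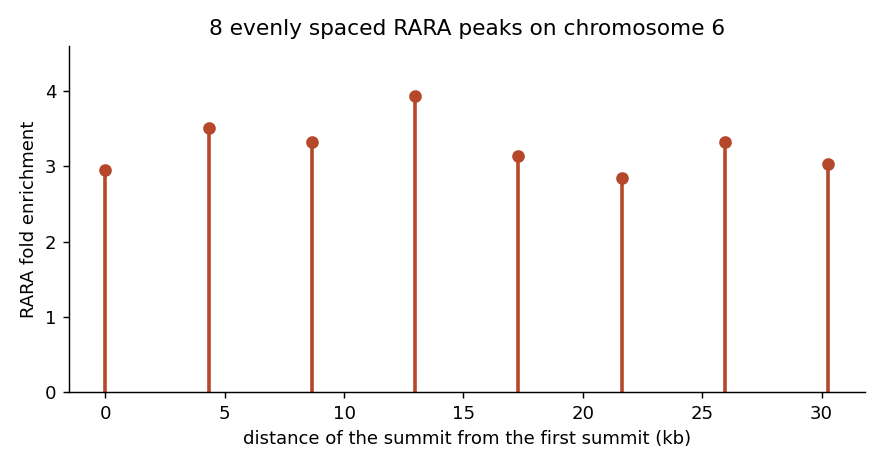
RARA fold enrichment (vertical, from 0) of the 8 evenly spaced peaks on chromosome 6 against the distance of each summit from the first summit in kb (horizontal). The summits stand 4310 to 4336 bp apart and the folds lie between 2.85 and 3.94.

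The run lay in a single library gap of 136.7 kb that lacked 1 number, between 12.2 and 42.5 kb from the nearest library region. A further 5 outside peaks stood in the same gap. Those from 47694103 to 47694311 and from 47702753 to 47703002 had folds of 2.48 and 2.49 at a −log10 q of 98.0 and 107. The one from 47713078 to 47713539 had a fold of 4.44 at a −log10 q of 245. The last pair had folds of 2.27 and 1.84 at 32.3 and 16.4. The sequence of this gap was not analysed here.

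Low fold at high −log10 q was seen in a few other outside peaks, named after their values were seen. The peak on chromosome 18 from 3005633 to 3006050 had a fold of 2.32 at a −log10 q of 105. The wide peak on chromosome 15 described above had 2.15 at 96.7. The highest −log10 q of all outside peaks, 3912, belonged to a peak on chromosome 12 from 98299647 to 98299999 with a fold of 9.74. It was 64.8 kb from the library, with no library region within 50 kb and the nearest other RARA peak was 1113 kb away.

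Listed enhancers were almost absent from outside peaks, a count that the rule nearly fixes. Of the listed enhancers 4622 of 4674 mESC (98.9%), 581 of 601 LIF-dependent (96.7%) and 376 of 382 RA-induced (98.4%) shared at least 1 bp with a library region. An mESC enhancer, called in cells with LIF, was overlapped by 2 of the 4217 outside peaks (0.0474%; 0.013 to 0.173%), against 8.97% of all RARA peaks. Over the 3 lists together the count was also 2, against 9.31%. For LIF-dependent enhancers, a list the labels tie to the samples with LIF, the count was 0 (0 to 0.091%), against 1.04%. For RA-induced enhancers, from the samples with RA, it was also 0 (0 to 0.091%), against 1.22%. The 2 exceptions were a peak of 3.43-fold on chromosome 19 from 53523911 to 53524063 and one of 3.13-fold on chromosome 3 from 89029553 to 89029766. They lay 8 and 27 bp from a library region.

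Within 10 kb the 3 lists were better represented. An mESC enhancer lay within 10 kb, between midpoints, of 617 outside peaks (14.6%; 13.6 to 15.7%), against 22.4% of all RARA peaks and 28.4% of inside peaks. Peaks that overlap an enhancer are counted in such shares, and the rule places nearly all of them inside. Among inside peaks 863 of 5422 (15.9%) overlapped an mESC enhancer. Lower shares and longer distances for outside peaks thus follow in part from the rule. An RA-induced enhancer lay within 10 kb of 96 outside peaks (2.28%; 1.87 to 2.77%), against 3.15% of all RARA peaks. A LIF-dependent enhancer lay within 10 kb of 71 (1.68%; 1.34 to 2.12%), against 3.00%. For near peaks these shares were 23.7, 3.20 and 3.02% in the same order. Near peaks thus came close to all RARA peaks in each of the 3 lists. They were below inside peaks in each, which had 28.4, 3.84 and 4.02% in the same order. Middle peaks had 15.5, 2.64 and 1.65%. Far peaks had 0 of 817 for each list, which their distance to library DNA nearly fixes. The median distance to an mESC enhancer was 91132 bp for outside peaks, 47186 bp for inside peaks and 316815 bp for far peaks.

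By chromosome the share of RARA peaks outside the library ran from 35.5% on chromosome 15 (111 of 313; 30.4 to 40.9%) to 59.8% on chromosome 14 (192 of 321; 54.4 to 65.0%). Chromosome 12 had 57.8% (52.9 to 62.5%) and chromosome X 56.7% (59 of 104; 47.1 to 65.8%). Chromosomes 13 and 4 followed with 51.2 and 50.5%, and without the crowded windows above they had 42.2 and 41.8%. Chromosome 12 without its window still had 53.4%. Outside peaks of chromosomes X and 14 were also the most remote, at a median of 9356 and 6581 bp from the library, against 892 bp on chromosome 11. Chromosome X thus differed in distance while the median fold of its outside peaks, 3.23, was not lower than on any other chromosome. Its inside peaks had a higher median fold, 3.72. They were also narrower than its outside peaks, with medians of 226 and 259 bp.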

How the data were processed

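RARA ChIP-seq peaks and the regions of the FAIRE plasmid library were compared in E14 cells, with 3 deposited enhancer lists beside them. Per the submitters' processing notes, the tools named are MACS2, Bowtie2, deepTools, SAMtools and UMI-tools, with build mm9. Their order, parameters and versions were not given in the sources used here. In each deposited list the authors give a fold over background at every summit, which is a ratio, the −log10 of its q-value and the summit position, and the enhancer lists came from merged samples. No read counts were given, so depth is unknown. Of several rows with the same region the one with the highest −log10 q was kept, leaving 9757 of 11366 RARA rows and 186959 of 195417 library rows. Coordinates are mm9, counted from 1. Medians carry 95% order-statistic intervals and shares 95% Wilson intervals. Code was tested on simulated regions. Python 3.11.15, NumPy 2.4.6, pandas 2.3.3 and SciPy 1.17.1 were used, with Matplotlib 3.10.9 for figures.

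The set of peaks, the groups and the measures were chosen with earlier results of these data known. Named regions followed a rule: the 10 strongest, 5 widest and 5 farthest outside peaks, the 5 fullest 1-Mb windows with their strongest peak, 5 peaks on each side of the overlap rule, and those at listed enhancers; others are marked. No mm9 genome or annotation was used, so genes, repeats and sequences are not given. The score table of mESC enhancers was not used here.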

Additional observations from a re-analysis of the deposited data

Results flagged for a closer look

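RARA peaks were also listed on sequences that no comparison above used. Of the 9757 RARA peaks 118 lay on the mitochondrial genome or on unplaced and unlocalised sequences of mm9, for which the library list has no region. The lowest of their folds was 1.59, the median 2.50 and the highest 14.4. The chrUn_random sequence held 51 of them and chr8_random 27, with median folds of 2.65 and 1.96. The single mitochondrial peak had a fold of 14.4 and the highest −log10 q of the whole list, 61101.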

How the results depend on the processing

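No paired analysis was possible because RARA ChIP-seq and the plasmid library have 1 sample each, the enhancer lists came from merged samples, and no result comes from a test. Of 94 values under alternatives, 31 stayed within the interval of the reported value and 63 moved; the causes were not tested. The order below is share outside, median fold, width in bp, share with several summits, distance in bp, library regions within 50 kb, share crowded within 10 kb, share at a listed enhancer and share within 10 kb of an mESC enhancer, with values that stayed left out by name. With the summit alone as the test of overlap the share outside was 53.0%, width 241, several summits 11.9%, distance 1028.5, library regions 15, listed enhancer 1.41% and near an mESC enhancer 16.7%. With under 50% of the length in the library they were 54.4%, 244, 12.5%, 949.5, 15, 1.74% and 17.2%. With no library region within 500 bp the share outside was 32.4%, fold 3.03, distance 3176, library regions 11, crowded 42.9%, listed enhancer 0% and near an mESC enhancer 11.5%. With the stronger 50% of library regions the share outside was 57.5%, fold 3.03, width 239, several summits 10.3%, distance 3494, library regions 7, listed enhancer 1.03% and near an mESC enhancer 16.5%. With the stronger 50% of RARA peaks the share outside was 38.7%, fold 3.79, width 269, distance 1868, crowded 27.3% and near an mESC enhancer 12.0%. With a −log10 q of at least 10 the share outside was 36.5%, fold 4.51, width 310, several summits 11.6%, distance 2009, crowded 27.0%, listed enhancer 0% and near an mESC enhancer 9.33%. With all rows kept the share outside was 41.8%, width 245 and crowded 47.3%. On autosomes alone none of the 9 values moved. Other distances gave 35.9% crowded within 5 kb and 68.3% within 50 kb, 3 library regions within 10 kb and 52 within 200 kb, and 36.2% within 50 kb of an mESC enhancer. Alternatives added after the data were seen were these. Without the 5 fullest windows the share outside was 42.1%, fold 3.04, several summits 8.36%, distance 1600, library regions 15 and crowded 41.7%. With gaps of consecutive numbers alone the share outside was 26.2%, fold 2.93, distance 634, library regions 20, crowded 56.3% and near an mESC enhancer 23.2%. Outside peaks kept the lower median fold and width and the higher crowded share under the summit rule and without the windows, where inside peaks were recomputed, and under the 500 bp rule and consecutive numbers, where the inside peaks were those of the report. Depth could not be assessed.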
